A study of Homo sapiens with 6 samples.

Results

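Transcripts of 10 genes were followed, the FOS and JUN family subunits of the transcription factor AP-1 (FOS, FOSB, FOSL1, FOSL2, JUN, JUNB and JUND) and 3 other immediate early genes (EGR1, IER2 and IER3). They were taken by symbol from the 56305 genes counted in each library, and all 10 had a symbol in the count tables and enough reads to be tested. The cells were MOLM-13, an acute myeloid leukemia line that carries an internal tandem duplication in the receptor tyrosine kinase gene FLT3 and a translocation between chromosomes 9 and 11. They had been exposed for 24 h to DMSO, the solvent, or to 1 µM ZW27941, a degrader that brings METTL3, the catalytic subunit of the m6A RNA methyltransferase, to the cell's protein disposal machinery. RNA-seq was done on 3 libraries of each kind, all from this 1 line, at 1 time and 1 dose. Nothing in the labels says whether the 3 libraries of a group came from separate cultures, so the p-values below measure only the spread between these libraries.

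Immediate early genes are switched on within minutes of a growth factor, cytokine or stress signal, without new protein synthesis, because kinases activate transcription factors that already sit in the cell. Their transcripts are short-lived, many carrying AU-rich elements in the 3′ untranslated region that bring about rapid decay, so their levels follow current transcription and decay closely. AP-1 is a dimer of a JUN protein with a FOS protein, another JUN protein or a relative such as an ATF or MAF protein, and in myeloid cells it takes part in proliferation, monocytic maturation and the expression of cytokines and proteases.

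Reads assigned to genes summed to between 143454176 and 153825333 per DMSO library and between 143621822 and 178744976 per ZW27941 library. Depth therefore left few members poorly measured, with FOSB the lowest at 93 to 140 reads per library. Reads that lay in no annotated gene made up 11.9% to 12.4% of each DMSO library and 10.5% to 11.4% of each ZW27941 library, and mitochondrial transcripts 2.59% to 2.72% and 2.90% to 2.99% of gene counts. Neither pair of ranges overlapped. ZW27941 replicate 3 had the largest shares of reads not aligned (18.1%) and not uniquely aligned (5.25%, against 3.63% to 4.07% in the other libraries). The part of these shares in the results below was not tested. Levels are given as CPM, a gene's count scaled to a common library size with TMM factors, which ran from 0.994 to 1.01. METTL3 mRNA was 122 ± 1.17 CPM on DMSO and 123 ± 4.96 CPM on ZW27941 (mean ± SD, n = 3 each), a log2 fold change of 0.013 ± 0.028 (SE, adjusted p = 0.765, edgeR). The compound removes the protein, so this level does not check the labels. All 11 myeloid leukemia markers were expressed, among them CEBPA, SPI1, MPO and LYZ, with summed levels of 3120 to 3180 CPM on DMSO and 3410 to 3490 CPM on ZW27941. Of 12 markers of other cell types, HBA1, HBB and PPBP were at 0 in every library and 4, among them KRT18, COL1A1 and PECAM1, had enough reads to be tested. The summed level of these markers was 269 to 279 CPM on DMSO and 335 to 343 CPM on ZW27941, most of it PECAM1, which monocytic cells also express. The part of the marker levels in the results below was not tested, and in bulk RNA fewer cells of a type and less RNA per cell cannot be told apart.

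Of the 10 transcripts, 6 (FOS, JUN, JUNB, EGR1, IER2 and IER3) were lower on ZW27941, and the other 4 (FOSB, FOSL1, FOSL2 and JUND) did not pass the test in either direction (edgeR's quasi-likelihood test, Benjamini-Hochberg adjusted p under 0.05 over the 20399 genes tested). None was higher by this test. At an unadjusted p under 0.05 FOSL2 was higher and 7 members were lower, and DESeq2 also called 0 members higher and 6 lower. The background was 13.8% of all genes tested called lower and 16.3% called higher, against 6 and 0 of the 10 members. Over the 12909 coding genes tested with an annotated 3′ untranslated region, both shares were higher, at 16.7% and 21.6%. In 7 members all ZW27941 libraries lay below all DMSO libraries, a pattern shared by 19.9% of all genes tested. In no member did all ZW27941 libraries lie above all DMSO libraries, against 21.7% of all genes. The median log2 fold change of the members was −0.13, beside −0.0019 over all genes tested, and in 9 of the 10 the ZW27941 mean was the lower one. The changes were small. The members called fell to between 73.9% (EGR1) and 94.2% (IER2) of their DMSO level, and none reached the size of 1 on the log2 scale that the study asked for. With upper quartile normalization 57.9% of all calls were lower in place of 45.8%, and 7 members were called lower. Leaving out 1 library at a time left 4 to 6 members called lower.

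**Figure D1:**
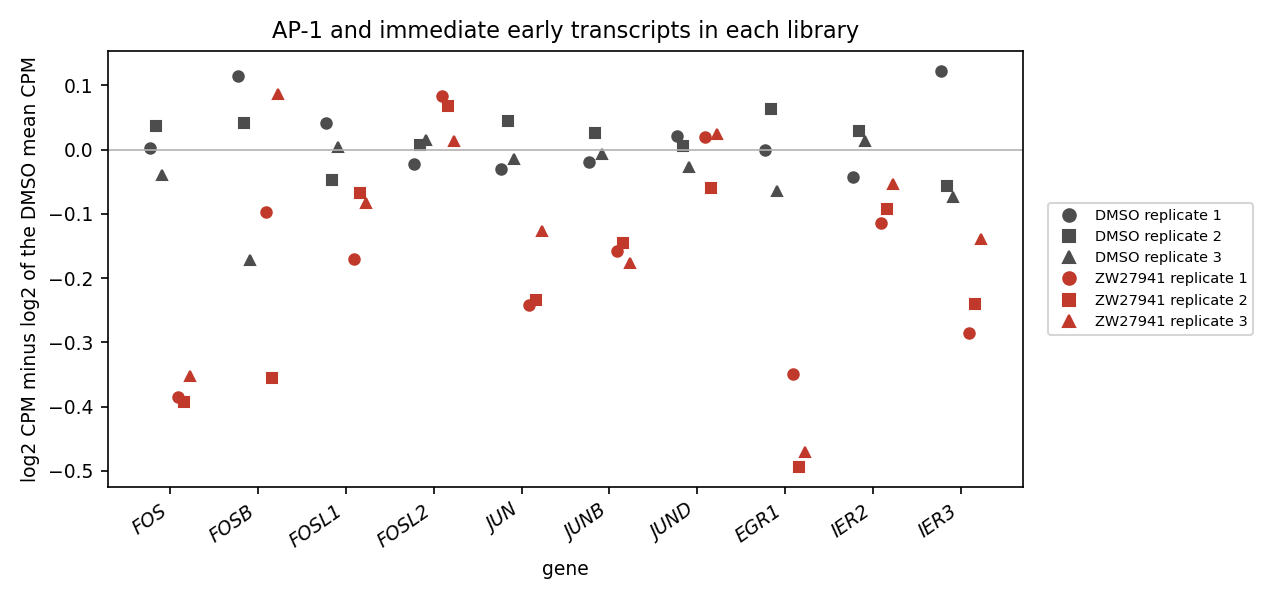
Level of each of the 10 transcripts (x axis) in each of the 6 libraries, as log2 CPM minus the log2 of that gene's DMSO mean (y axis), with DMSO libraries in grey, ZW27941 libraries in red and a different symbol for each replicate. The red symbols of FOS, JUN, JUNB and EGR1 stand clearly below the grey ones, while those of FOSB, FOSL2 and JUND are mixed with them.

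FOS encodes the classical partner of JUN and is among the first genes to respond to a mitogen. It is on the plus strand of chromosome 14 (GRCh38, chr14:75278774-75282230). Its level was 43.7, 44.8 and 42.5 CPM in DMSO libraries 1 to 3 and 33.5, 33.3 and 34.2 CPM in the ZW27941 libraries. The groups did not overlap, and the gap between them was several times the spread inside either one. The means were 43.7 ± 1.15 and 33.7 ± 0.517 CPM (SD, n = 3 each), so FOS fell to 77.0% of its DMSO level. The log2 fold change was −0.38 ± 0.030 (SE, 95% interval −0.44 to −0.32, edgeR adjusted p = 5.39e-09). FOS had the lowest adjusted p of the 10 members, and its log2 fold change was larger in size than that of 82.1% of all genes called, whose median size was 0.17. Under the 13 alternatives of normalization, filter, test, design and left-out library it stayed between −0.40 and −0.36 and was called lower in all of them.

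The other FOS family genes did not pass the test. FOSL2, whose protein is FRA-2, is at chr2:28392448-28417312 (plus strand) and was at 283, 289 and 290 CPM on DMSO and 305, 301 and 290 CPM on ZW27941. Replicate 3 on ZW27941 was level with the DMSO libraries, so the groups overlapped. The log2 fold change was 0.055 ± 0.025 (95% interval 0.003 to 0.11, adjusted p = 0.103). Without that library it was 0.073 and was called higher (adjusted p = 0.0165), the lowest of a range of 0.0165 to 0.376 over the 13 alternatives. FOSL1, whose protein is FRA-1, is at chr11:65892049-65900573 (minus strand) and was at 12.4, 11.7 and 12.1 CPM on DMSO and 10.7, 11.5 and 11.4 CPM on ZW27941. All its ZW27941 libraries were lower than all its DMSO libraries, by a narrow gap. Its log2 fold change of −0.11 ± 0.046 (95% interval −0.20 to −0.012) had an adjusted p of 0.082. With upper quartile normalization this became −0.13 and was called lower (adjusted p = 0.0329, range over the alternatives 0.0329 to 0.312). FOSB, at chr19:45467995-45475179 (plus strand), was at 0.893, 0.849 and 0.733 CPM on DMSO and 0.771, 0.645 and 0.876 CPM on ZW27941. Its libraries were mixed between groups, with DMSO replicate 1 the highest and ZW27941 replicate 2 the lowest. The log2 fold change of −0.11 ± 0.14 had an interval of −0.40 to 0.19 (adjusted p = 0.626), so a fall as large as that of FOS was within the error.

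In the JUN family, JUN and JUNB were lower and JUND showed no detectable difference. JUN encodes the most strongly activating JUN subunit, which is phosphorylated by the JNK kinases. The gene has a single exon at chr1:58780788-58784327 (minus strand), and its transcript was at 14.6, 15.3 and 14.7 CPM on DMSO and 12.6, 12.6 and 13.6 CPM on ZW27941. ZW27941 replicate 3 was the nearest to the DMSO libraries, and the groups did not overlap. JUN fell to 87.1% of its DMSO level, a log2 fold change of −0.20 ± 0.042 (95% interval −0.29 to −0.11, edgeR adjusted p = 0.00101). JUNB, a subunit that often restrains JUN, also has a single exon, at chr19:12791496-12793315 (plus strand). Its level was 103, 106 and 104 CPM on DMSO and 93.5, 94.3 and 92.3 CPM on ZW27941. The ZW27941 libraries lay close together and all below DMSO. JUNB fell to 89.5%, a log2 fold change of −0.16 ± 0.025 (95% interval −0.21 to −0.11, adjusted p = 4.45e-05). Both were called lower under all 13 alternatives. JUND, which is expressed at a steady level in many cell types, is at chr19:18279760-18281622 (minus strand). It was at 146, 145 and 142 CPM on DMSO and 146, 138 and 147 CPM on ZW27941. The highest and the lowest library were both on ZW27941. The log2 fold change of −0.004 ± 0.027 had an interval of −0.060 to 0.051 (adjusted p = 0.922), which leaves out falls of the size seen in JUN and JUNB, and its sign changed with the normalization, the filter and the libraries left out. Whether JUND differed from JUN and JUNB in its response was not tested as such.

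EGR1 encodes a zinc finger factor induced through the ERK kinases and serum response factor, and is known for a role in monocytic differentiation. It is at chr5:138465490-138469315 (plus strand) and had 2.37, 2.48 and 2.27 CPM on DMSO and 1.86, 1.69 and 1.71 CPM on ZW27941. The groups were well apart although EGR1 was a low transcript here. Its fall to 73.9% of the DMSO level was the largest among the members, with a log2 fold change of −0.43 ± 0.088 (95% interval −0.62 to −0.25, edgeR adjusted p = 0.000671). The call held under all 13 alternatives, with log2 fold changes from −0.48 to −0.40. IER2, a nuclear protein of the immediate early response, is at chr19:13150415-13154908 (plus strand) and was at 160, 168 and 166 CPM on DMSO and 152, 155 and 159 CPM on ZW27941. The highest ZW27941 library was just under the lowest DMSO library. The difference was the smallest among the members called, a log2 fold change of −0.086 ± 0.026 (95% interval −0.14 to −0.032, adjusted p = 0.015). The call was lost without DMSO replicate 2 or 3 or ZW27941 replicate 1 or 2, and over the 13 alternatives the adjusted p ran from 0.0016 to 0.0876. IER3, a stress- and NF-kappaB-induced regulator of cell survival, is at chr6:30743199-30744554 (minus strand) and was at 4.01, 3.53 and 3.49 CPM on DMSO and 3.02, 3.11 and 3.34 CPM on ZW27941. DMSO replicate 1 was the highest, and without it the log2 fold change was −0.15 in place of −0.22 and was not called (adjusted p = 0.199). With all 6 libraries it was −0.22 ± 0.080 (95% interval −0.39 to −0.054, adjusted p = 0.0408). The call of IER3 was also lost without DMSO replicate 2 or ZW27941 replicate 1 or 2, with scaling by library size only and with no filter on low counts, and the adjusted p ran from 0.0155 to 0.199 over the alternatives.

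**Figure D2:**
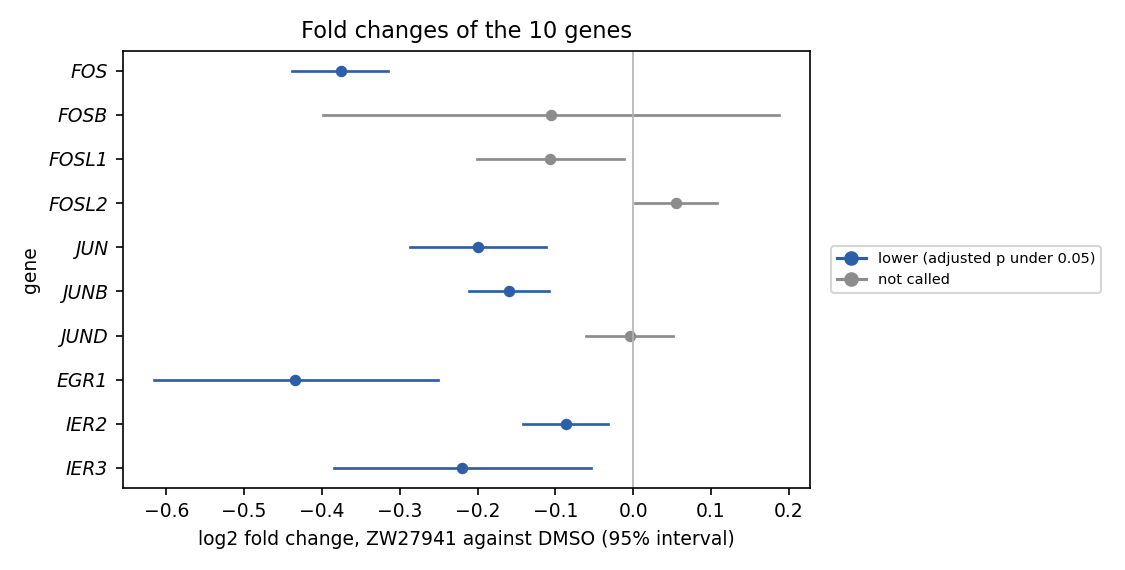
Log2 fold change of each of the 10 transcripts on ZW27941 against DMSO (x axis, points) with its 95% interval (lines), in blue where the Benjamini-Hochberg adjusted p was under 0.05 and in grey otherwise. EGR1 at −0.43 and FOS at −0.38 lie farthest to the left, and JUND at −0.004 lies on the line of no difference.

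Some members share genomic space with other annotated genes, and the strand setting used in counting is not given in the sources used here. In the GENCODE 29 annotation JUNB shares 259 exonic bases with HOOK2 on the opposite strand, whose log2 fold change was 0.094 (adjusted p = 0.0686, edgeR). IER2 shares 946 exonic bases with the antisense gene AC011446.2 and IER3 shares 359 with IER3-AS1, and neither of these symbols is among the genes counted. FOSB lies inside ERCC1 on the opposite strand (log2 fold change −0.062, adjusted p = 0.0818) without any shared exonic base. FOSL2 overlaps FLJ31356 and AC104695.3, also without shared exonic bases. If strand was not used, reads of JUNB, IER2 and IER3 and of these partners cannot be told apart where their exons overlap.

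Levels of different genes were compared per length, as CPM per kilobase of annotated exon. On DMSO the order was JUND (77.4 CPM per kilobase), JUNB (57.3), IER2 (53.6), FOSL2 (40.2), FOS (13.5), FOSL1 (6.40), JUN (4.20), IER3 (2.71), EGR1 (0.757) and FOSB (0.149), and this order was kept by the means on ZW27941. Among neighbours in this order, only JUNB (50.7 to 51.8) and IER2 (49.6 to 51.7) had overlapping libraries on ZW27941, and on DMSO the libraries of no 2 neighbours overlapped. The abundant AP-1 transcripts of these cells were therefore JUND, JUNB and FOSL2, while FOS and JUN were minor ones. FOS made up 22.4% ± 0.557 of the summed FOS family level on DMSO and 17.9% ± 0.508 on ZW27941 (SD, n = 3 each). The share of FOSL2 was 66.7% ± 0.610 on DMSO and 71.7% ± 0.880 on ZW27941. In the JUN family JUNB had 41.2% ± 0.540 on DMSO and 38.8% ± 1.00 on ZW27941, JUND 55.7% ± 0.599 and 58.4% ± 0.971, and JUN 3.02% and 2.77%. The ranges of FOS, FOSL2, JUN, JUNB and JUND shares did not overlap between groups, which follows from the fold changes above. The family sums were slightly lower on ZW27941. They went from 60.2 ± 0.381 to 58.2 ± 0.765 CPM per kilobase for the FOS family and from 139 ± 1.63 to 132 ± 2.15 for the JUN family. The groups did not overlap in either sum. The FOS family had 59.8 to 60.5 on DMSO and 57.3 to 58.7 on ZW27941, and the JUN family 137 to 140 and 130 to 133. These sums and shares are descriptions with no test, and measured with the longest transcript of each gene the FOS family sum was 70.5 on DMSO and 67.0 on ZW27941. The shares also depend on the length used, since annotated exons of FOS cover 3238 bases and its longest transcript 2158.

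**Figure D3:**
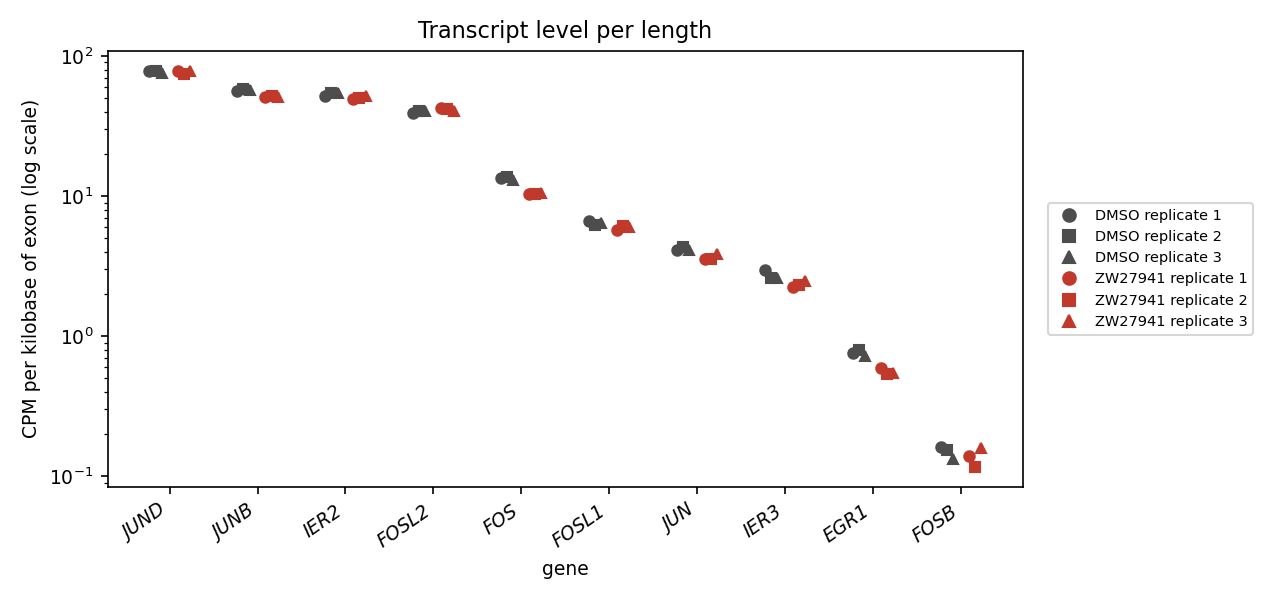
Level of each of the 10 transcripts in each of the 6 libraries, as CPM per kilobase of annotated exon on a log scale (y axis), ordered by the DMSO mean, with DMSO libraries in grey and ZW27941 libraries in red. JUND, JUNB, IER2 and FOSL2 lie between 39.5 and 78.8, and EGR1 and FOSB lie under 1.

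The promoters of some members that were lower and of 1 that was not are shown next. Promoter sequences were taken from RefSeq (GRCh38.p14), which held 8 of the 10 members, without FOSL1 and IER3. They cover 250 bases before to 50 bases after the start and are written 5′ to 3′ on the strand of the gene. Capitals mark matches on either strand to 5 motifs: the CArG box bound by serum response factor, the cAMP response element core TGACGT, the variant TGACATCA known from the JUN promoter, the AP-1 site TGANTCA and the TATA box TATAAA. FOS and EGR1 are shown as the members that fell most, JUN as the AP-1 subunit that is known to act on its own promoter, and JUND as the comparison without a detectable difference.
FOS, chr14:75278578-75278877, plus strand: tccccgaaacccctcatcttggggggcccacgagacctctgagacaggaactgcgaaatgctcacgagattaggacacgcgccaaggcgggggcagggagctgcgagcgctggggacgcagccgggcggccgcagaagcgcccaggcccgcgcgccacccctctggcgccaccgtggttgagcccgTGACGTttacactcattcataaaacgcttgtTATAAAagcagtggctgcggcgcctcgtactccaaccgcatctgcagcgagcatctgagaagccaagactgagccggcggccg
EGR1, chr5:138465229-138465528, plus strand: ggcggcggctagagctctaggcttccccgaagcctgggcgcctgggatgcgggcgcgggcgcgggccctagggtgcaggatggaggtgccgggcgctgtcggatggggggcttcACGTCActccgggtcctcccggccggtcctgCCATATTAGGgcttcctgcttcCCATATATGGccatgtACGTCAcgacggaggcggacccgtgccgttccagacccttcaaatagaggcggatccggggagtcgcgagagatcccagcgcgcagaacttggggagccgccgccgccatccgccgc
JUN, chr1:58783998-58784297, minus strand: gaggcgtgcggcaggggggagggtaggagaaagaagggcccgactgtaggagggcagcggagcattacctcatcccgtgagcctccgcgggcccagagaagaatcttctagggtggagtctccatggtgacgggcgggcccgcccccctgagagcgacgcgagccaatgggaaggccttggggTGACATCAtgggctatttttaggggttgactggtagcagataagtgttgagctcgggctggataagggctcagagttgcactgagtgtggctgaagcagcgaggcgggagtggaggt
JUND, chr19:18281573-18281872, minus strand: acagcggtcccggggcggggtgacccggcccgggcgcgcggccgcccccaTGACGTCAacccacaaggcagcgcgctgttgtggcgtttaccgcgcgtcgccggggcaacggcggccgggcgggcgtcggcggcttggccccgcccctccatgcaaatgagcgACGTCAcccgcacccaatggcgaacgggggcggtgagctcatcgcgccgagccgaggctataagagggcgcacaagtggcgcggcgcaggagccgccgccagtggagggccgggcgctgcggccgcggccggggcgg

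EGR1 held 2 CArG boxes, whose first bases lay 105 and 83 bases before the start, and it was the only member matched with one in this window, against 1.29% of 35116 RefSeq promoters. The core TGACGT, held by 7.98% of all promoters, was present in FOS, FOSB and FOSL2 at 1 place each, in EGR1 at 2 places and in JUND at 3, the first 2 of which overlap. JUN held TGACATCA 67 bases before its start (2.61% of all promoters). FOS, FOSB and JUNB held TATAAA between 33 and 30 bases before the start (11.5% of all). FOSL2 held the AP-1 site just after its start (7.71% of all), and IER2 matched none of the motifs. Of the members called lower, FOS and EGR1 held TGACGT and JUN, JUNB and IER2 did not, and all 3 members with a promoter that were not called (FOSB, FOSL2 and JUND) held it. The matches are letters in these windows and say nothing of which factors were bound. Bases outside the windows were not searched, so the absence of a match does not show that a gene lacks the motif farther away.

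The AU-rich pentamer ATTTA, a core of decay elements, occurred in the 3′ untranslated region of 9 members (GENCODE 29, longest coding transcript). It was found 9 times in FOSL2, 6 times in IER3, 5 times in FOS, 3 times in FOSB and in JUN, 2 times in JUNB, 1 time in FOSL1, JUND and EGR1, and 0 times in IER2. Per kilobase this was densest in IER3 (6.62) and FOS (6.18), against a median of 1.54 over 12909 coding genes tested, while FOSL2 had 1.85 and EGR1 0.808. The longer nonamer TTATTTATT occurred 1 time in FOS and 1 time in FOSL2, which had log2 fold changes of −0.38 and 0.055. GGACT, a common form of the sequence that METTL3 methylates, occurred at 2.96 per kilobase of transcript in IER3, 2.39 in IER2, 1.41 in JUN and 1.39 in FOS, and was not found in EGR1 or FOSL1 (median of all 0.942). GGACT was the only form searched, so its absence does not show that a transcript lacks sites that METTL3 methylates. A link between these motifs and the fold changes was not tested. No m6A was measured in these libraries.

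The spread between libraries of the better expressed members was below, near or above that of other genes, depending on the member and the group. The SD of log2 CPM in DMSO and ZW27941 libraries was 0.023 and 0.016 for JUNB, 0.038 and 0.022 for FOS and 0.038 and 0.031 for IER2, beside medians of 0.035 and 0.038 over genes whose mean log2 CPM was 1 or more. For FOSL2 it was 0.020 and 0.036. On ZW27941 the SD was above the median in JUN (0.065), FOSL1 (0.055) and JUND (0.048), beside 0.039, 0.044 and 0.025 on DMSO. It was largest for FOSB (0.15 and 0.22), followed by IER3 (0.11 and 0.075) and EGR1 (0.064 and 0.078), the 3 members with the fewest reads. The genes whose profile over the 6 libraries was most like that of FOS were PVT1, TVP23C and SLC29A2, with root mean square differences of 0.017, 0.020 and 0.022 in centred log2 CPM. For JUN they were CYTH2, TMEM179B and PRDX5 (0.0095, 0.013 and 0.014), and for EGR1 RP11-465B22.3, BBC3 and CTA-941F9.10 (0.044, 0.044 and 0.048). These were picked among 12237 genes as the closest and carry no test. The profiles include the difference between groups, so a similar fall on ZW27941 by itself makes genes alike. Log2 fold changes were −0.37 to −0.354 in the genes like FOS, −0.203 to −0.189 in those like JUN and −0.487 to −0.378 in those like EGR1.

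A wider list of 34 other immediate early genes showed falls and rises. Of 32 tested, 14 (43.8%) were lower and 4 (12.5%) higher on ZW27941, beside 13.8% and 16.3% of all genes tested. The median log2 fold change was −0.13 beside −0.0019 for all genes, and 25 had a lower mean, as did 10279 of the 20399 genes tested. SGK1, a serum-induced kinase, was at 16.4, 15.8 and 16.9 CPM on DMSO and at 10.9, 11.3 and 10.7 CPM on ZW27941. Its groups were far apart, with a log2 fold change of −0.58 ± 0.042 (edgeR adjusted p = 1.46e-09). PPP1R15A, the stress-induced phosphatase subunit GADD34, fell from 68.0 ± 2.35 to 50.9 ± 1.65 CPM (log2 fold change −0.42, adjusted p = 1.77e-09). GADD45B, an inducible regulator of stress kinases, fell from 83.9 ± 1.86 to 71.3 ± 1.61 CPM (log2 fold change −0.23, adjusted p = 1.09e-06). The other genes called lower were NR4A1, NR4A3, MYC, ZFP36, BTG2, DUSP1, DUSP2, CCNL1, PLK2, PLK3 and TIPARP. In contrast KLF4, a zinc finger factor of monocytic differentiation, rose from 19.8 ± 0.638 to 25.6 ± 0.971 CPM (log2 fold change 0.37, adjusted p = 1.15e-07). ETS2, an ETS family factor that responds to RAS signals, rose from 99.3 ± 0.985 to 119 ± 0.282 CPM (log2 fold change 0.26, adjusted p = 6.27e-08). The other genes called higher were MCL1 and RHOB. With upper quartile normalization, 15 genes of the list were lower and 4 higher.

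**Figure D4:**
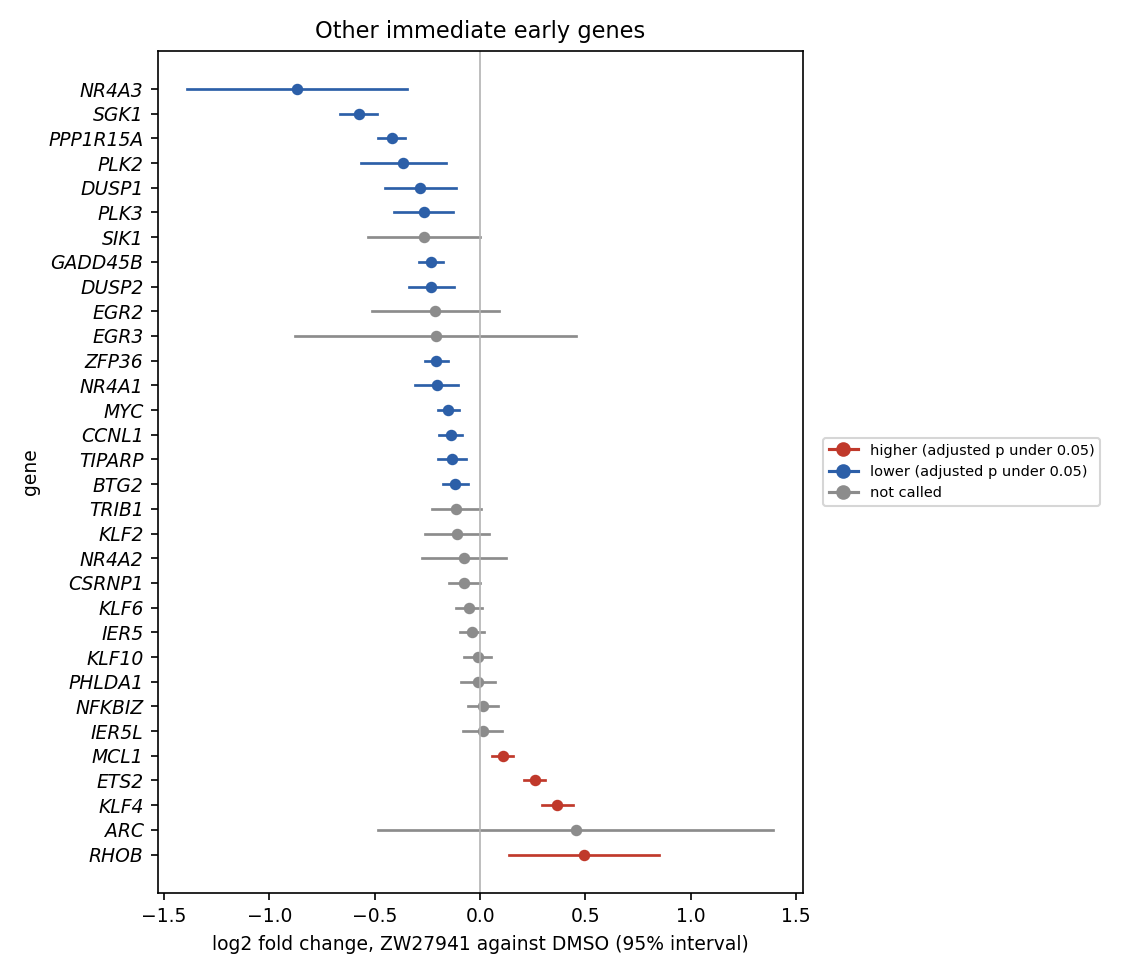
Log2 fold change of the 32 other immediate early genes tested (x axis, points, ZW27941 against DMSO) with 95% intervals (lines), sorted by size, in blue where lower and in red where higher at a Benjamini-Hochberg adjusted p under 0.05 and in grey otherwise. The 14 blue points include SGK1 at −0.58 and PPP1R15A at −0.42, and the 4 red points include KLF4 at 0.37.

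Other partners of AP-1 dimers moved in both directions. Of 13 ATF, BATF, JDP and MAF family genes tested, 6 were lower (46.2%) and 2 higher (15.4%), beside 13.8% and 16.3% of all genes tested, with a median log2 fold change of 0.021. MAFF, a small MAF protein that is itself inducible, fell from 10.3 ± 0.577 to 8.27 ± 0.208 CPM (log2 fold change −0.31, edgeR adjusted p = 1.00e-04). ATF3, a stress-induced repressor, was at 9.99, 10.7 and 9.81 CPM on DMSO and 8.14, 9.01 and 8.12 CPM on ZW27941. Its groups did not overlap, and its log2 fold change was −0.27 ± 0.055 (adjusted p = 6.32e-04). MAF (log2 fold change −0.43) and MAFK (−0.090), both MAF proteins, were also lower, as was JDP2. Without ZW27941 replicate 2 the count called lower was 3 in place of 6, and MAFK was not called (log2 fold change −0.078, adjusted p = 0.0738, edgeR). ATF7 (0.093) and MAFG (0.071) were higher. Neither was called with upper quartile normalization or without DMSO replicate 1 or 3, and at most 1 of them without any other library.

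Genes of the signal inputs to FOS, JUN and EGR1 moved in both directions, at shares near those of all genes. Of 23 kinases and transcription factors upstream of immediate early genes, 4 were lower (17.4%) and 3 higher (13.0%), beside 13.8% and 16.3% of all genes tested, with a median log2 fold change of −0.014. MAP2K2 and MAP2K1, the kinases that activate ERK, were lower, from 139 ± 1.51 to 120 ± 4.0 CPM (log2 fold change −0.22, edgeR adjusted p = 2.28e-06) and from 102 ± 0.814 to 94.0 ± 1.91 CPM (−0.11, adjusted p = 0.00141). ELK3 and ELK4, cofactors of serum response factor, and RPS6KA3, a kinase downstream of ERK, were higher, with log2 fold changes of 0.25, 0.18 and 0.23. SRF itself had a log2 fold change of −0.011 (adjusted p = 0.785) and the ERK gene MAPK3 had −0.048, neither of which passed the test. These are transcript levels, and the activity of the kinases was not measured.

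Among the genes of 8 proteins that bind AU-rich elements, 1 was lower (12.5%) and 2 higher (25.0%), shares based on few genes that lie near the 13.8% and 16.3% of all genes tested. ZFP36, which triggers decay and is itself an immediate early gene, was at 154, 162 and 160 CPM on DMSO and 135, 139 and 139 CPM on ZW27941. Its groups did not overlap, and its log2 fold change was −0.21 ± 0.026 (edgeR adjusted p = 2.98e-06). ELAVL1, the stabilizing protein HuR, rose from 120 ± 3.37 to 133 ± 2.06 CPM (log2 fold change 0.15, adjusted p = 1.54e-04), and KHSRP, a decay factor, from 432 ± 7.89 to 455 ± 4.10 CPM (0.072, adjusted p = 0.0277). The call of KHSRP was lost with upper quartile normalization and in 4 of the 6 fits that left out a library.

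Of 15 genes known as targets of AP-1, 13 were tested, 6 (46.2%) were lower and 1 higher (7.69%), beside 13.8% and 16.3% of all genes tested, with a median log2 fold change of −0.050. SPP1, which encodes the secreted protein osteopontin, was at 28.1, 31.2 and 33.0 CPM on DMSO and 17.4, 18.5 and 18.5 CPM on ZW27941. The fall was large beside the spread in either group, with a log2 fold change of −0.77 ± 0.044 (edgeR adjusted p = 4.54e-11). The cytokine TNF fell from 25.8 ± 1.22 to 20.7 ± 1.32 CPM (log2 fold change −0.32, adjusted p = 5.17e-06) and the chemokine CXCL8 from 1.20 ± 0.0937 to 0.727 ± 0.0678 CPM (−0.72, adjusted p = 1.11e-04). PLAU, the urokinase protease, fell from 120 ± 0.521 to 108 ± 2.83 CPM (−0.15, adjusted p = 1.10e-04). HMOX1 and VIM were the other genes called lower. MMP9, a matrix protease, rose from 6.22 ± 0.176 to 7.79 ± 0.440 CPM (0.33, adjusted p = 2.74e-04). Binding of AP-1 to these genes was not measured.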

How the data were processed

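For each of the 6 MOLM-13 libraries (3 per group) the values deposited by the authors are raw HTSeq counts per gene symbol, neither normalized nor filtered. The submitters' processing notes name HISAT2, SAMtools 1.19.2, HTSeq 2.0.3 and hg38, while annotation release and strand setting are not given in the sources used here. Of 56305 genes per library, 21603 had no count. The 5 HTSeq tallies of unassigned reads (37.4% to 39.8% of reads) stayed out of library sizes and tests.

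Counts were tested in R 4.3.3 with edgeR 4.0.16 (TMM, filterByExpr, quasi-likelihood test), with Benjamini-Hochberg adjustment over all 20399 genes tested and a threshold of 0.05. Standard errors and 95% intervals are those of single genes, unadjusted. The procedure was tested on simulated data whose planted changes were all larger in size than those of the members. That check therefore did not cover changes as small as theirs. Alternatives were RLE, upper quartile and library size scaling, no filter, at least 10 counts in every library, DESeq2 1.42.0, the replicate number as a block, each library left out, the study's threshold and longest transcript lengths. The labels number the replicates without saying that numbers mark a shared culture or day.

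The members and lists were chosen with earlier results of these data known. Genes named were all members, in each list up to 5 called genes with the lowest p, the 3 genes most like FOS, JUN and EGR1 among those whose mean log2 CPM was 1 or more, markers, and genes overlapping members, apart from a few genes not reported here. NR4A1, NR4A3, MYC, BTG2, DUSP1, DUSP2, CCNL1, PLK2, PLK3, TIPARP, MCL1, RHOB, JDP2, ATF7, MAFG, HMOX1, VIM, SRF and MAPK3 were named after their values were seen. Motif searches in promoters and transcripts were chosen after the counts were seen. Gene positions, exon lengths and untranslated regions came from GENCODE 29.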

Additional observations from a re-analysis of the deposited data

How the results depend on the processing

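Over the 13 alternatives, 114 of 130 member values kept their direction and their side of the threshold, 10 lost the call, 2 gained it and 4 changed sign, and 289 of 299 values of the other named genes kept theirs while 10 lost the call. All 4 changes of sign were in JUND, whose log2 fold change was 0.006 with library size scaling, 0.001 with no filter on low counts, 0.007 without DMSO replicate 1 and 0.021 without ZW27941 replicate 2, and ran from −0.022 to 0.021 over the fits that left out a library. Members called lower ranged from 4 to 6 and members called higher from 0 to 1 over these fits. AP-1 partners called lower ranged from 3 to 6 and called higher from 0 to 1, inputs called higher from 3 to 4, AU-rich element binding proteins called higher from 1 to 2, and genes called lower from 2131 to 2883 and higher from 2691 to 3251. With upper quartile normalization 0 AP-1 partners were higher, and of the AU-rich element binding proteins 1 was higher and 2 were lower, as were 2 with DESeq2. Under the study's rule (a log2 change beyond 1 in size together with an unadjusted p under 0.05), 128 genes were higher and 189 lower. The study itself reported many more genes in both directions under its rule, so its counts were not reproduced here. The source of this gap was not tested. In the present fit 1 AP-1 partner was lower and 0 were higher under the rule. Members, other immediate early genes, inputs, AU-rich element binding proteins and AP-1 target genes had 0 in either direction. At an adjusted p under 0.05 edgeR called 6 members lower, at an unadjusted p under 0.05 it called 7, and DESeq2 called 6. Longest transcript lengths gave FOS family sums of 70.5 and 67.0 CPM per kilobase on DMSO and ZW27941. The causes of these changes were not tested.

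Deviations of same-numbered libraries from their group means had correlations of −0.075, −0.030 and 0.13 over genes, and not every library correlated best with its own number. With 3 libraries per group these deviations are tied to each other. The correlations therefore cannot show whether a number marks a shared culture or day. With the replicate block, 6010 genes were called in place of 6149, and 6 members were lower and 0 higher. JUNB, IER2 and IER3 share exonic bases with genes on the other strand, and the strand setting of the counting is unknown. The log2 fold changes are relative to the other genes of each library, and the study has 1 line, dose and time.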

Other observations

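Genes whose 3′ untranslated region held the AU-rich nonamer TTATTTATT, as those of FOS and FOSL2 do, made up 1136 (8.80%) of 12909 coding genes tested. Of them 16.9% were lower and 20.2% higher on ZW27941, beside 16.6% and 21.7% of the 11773 genes without it, with median log2 fold changes of 0.005 and 0.009. Among the 274 genes with at least 2 copies, 22.3% (61) were lower and 16.8% (46) higher, with a median of −0.003. These are descriptions of a grouping chosen after the counts were seen, with no test.

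Of the 11 myeloid leukemia markers, 7 (63.6%) were higher and 0 lower on ZW27941 (edgeR adjusted p under 0.05), beside 16.3% and 13.8% of all genes tested, while 1 was lower at an unadjusted p under 0.05. CSF1R, the receptor for the monocyte growth factor M-CSF, was at 48.3, 48.7 and 47.7 CPM on DMSO and 65.2, 62.7 and 63.3 CPM on ZW27941, so that its groups did not overlap (log2 fold change 0.40 ± 0.027 SE, adjusted p = 4.69e-10). LYZ, the lysozyme of monocytes and granulocytes, rose from 963 ± 31.2 to 1160 ± 34.7 CPM (log2 fold change 0.27, adjusted p = 3.74e-07). Of the markers of other cell types, PECAM1 rose from 259 ± 5.19 to 327 ± 4.51 CPM and KRT18 fell from 12.7 ± 0.0874 to 10.2 ± 0.523 CPM, with log2 fold changes of 0.34 and −0.31.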
